A study of Citrullus lanatus with 12 samples.

Results

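Messenger RNA of tetrad-stage and mature anthers of watermelon (Citrullus lanatus) was compared, the first and the last of 4 stages of pollen development in the series. The members were chosen by stage label alone: 3 tetrad and 3 mature libraries, 6 of the 12 in all, read over 17484 tested genes of the 23440 gene IDs in the table. All libraries came from greenhouse-grown progeny of the variety Xinteda Zhengkang 9, with no treatment and no genotype contrast between stages, so the groups differ by developmental stage only as the labels give it. Each anther was staged under the microscope on a part of its tissue and RNA was taken from the rest; the tissue label itself reads flower. The labels do not say whether a library is 1 anther or a pool, nor whether the 3 libraries of a stage came from different plants, so p-values measure the spread between these samples, which may in part be technical.

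In a tetrad anther the meiotic products remain enclosed in a shared callose wall, and the surrounding tapetum, a secretory layer of the anther wall, is active in feeding them and making pollen wall material. In a mature anther the pollen grains are free and the tapetum has broken down. RNA of a whole anther therefore comes from sporophytic wall tissue and from the developing pollen together, and in such bulk samples fewer cells of a type and less RNA per cell cannot be told apart. The table gives gene IDs without names, so each gene appears under its ID with no role attached; marker genes of tapetum, pollen or other tissue were not analysed here, and the stage labels were not checked against markers.

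The 6 libraries held 55347640 to 65023182 gene reads each, and 1 CPM (a gene's reads scaled to the total of its library) stood for 55.3 to 65.0 reads. Replicates of both stages differed by more than counting noise. The squared deviation of a gene between 2 libraries, in units of its counting variance, had a median of 5.70 to 7.92 among tetrad pairs and 7.10 to 28.2 among mature pairs, where counting alone gives 0.455. Mature replicate 3 stood apart, with 28.2 against mature replicate 1 and 23.5 against mature replicate 2, which had 7.10 against each other. The typical gene also varied more in mature than in tetrad libraries, with a median within-stage SD of the log2 value of 0.202 and 0.122. It was 0.209 in mononuclear and 0.186 in dikaryophase libraries, so the tetrad libraries had the smallest spread of the 4 stages.

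Tetrad and mature anthers differed widely, and about as many genes were higher as lower at maturity. Of the 17484 genes, 3576 (20.5%) were called, meaning a Benjamini-Hochberg adjusted p under 0.05 in limma and a change of at least 2-fold. Of these, 1789 (10.2%) were higher and 1787 (10.2%) lower in mature anthers. A further 3864 genes passed the adjusted p with a smaller change, which brings those past the adjusted p to 7440 (42.6%). For 10802 genes (61.8%) the 95% interval of the difference lay wholly within 2-fold in either direction, so a change of 2-fold or more lay outside it. The remaining 3106 genes (17.8%) were neither called nor held within 2-fold. The median difference over all tested genes was -0.01 on the log2 scale. Without mature replicate 3 the calls numbered 3662, and without mature replicate 1 they numbered 3383, the fewest of the 6 settings that leave out a library of these stages. limma-voom, run on the recovered reads, called 3540 genes (20.2%).

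**Figure D1:**
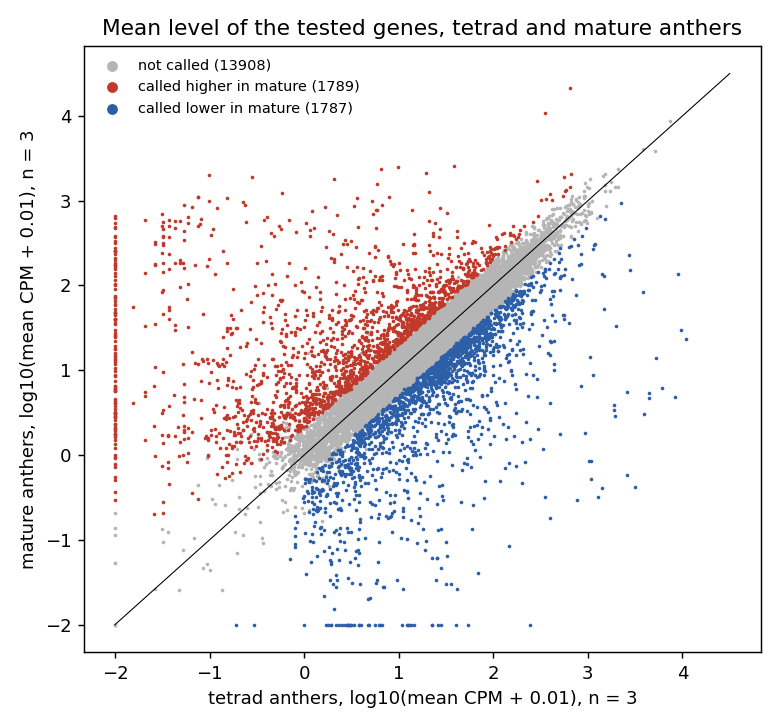
Mean level of each of the 17484 tested genes in tetrad (horizontal) and mature anthers (vertical), both as log10(mean CPM + 0.01) over 3 libraries, with the line of equal levels. The 1789 genes called higher in mature anthers (red) reach down to the left edge, where 110 of them had no tetrad read, and of the 1787 called lower (blue) 40 lie on the lower edge with no mature read.

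The balance of rises and falls hid a difference in size. Among changes of 2 to 4-fold, 802 genes rose and 1056 fell. Among larger changes the order turned, with 287 rises against 217 falls of 8 to 32-fold, 259 against 189 of 32 to 1024-fold, and 126 against 25 (0.143%) of at least 1024-fold. The numbers for 4 to 8-fold, 315 and 300, were close, and falls were the more numerous there with quantile normalisation (261 rises, 323 falls), with limma-voom (299 and 300) and in several settings that leave out a library. Of the genes changed at least 4-fold, 57.5% rose, and over the other scalings, filters, pseudocount and left-out libraries that share was 53.6% to 57.8%. The count beyond 1024-fold depends on the offset added before taking logs: with an offset of 0.1 in place of 1 it was 180 rises and 68 falls.

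**Figure D2:**
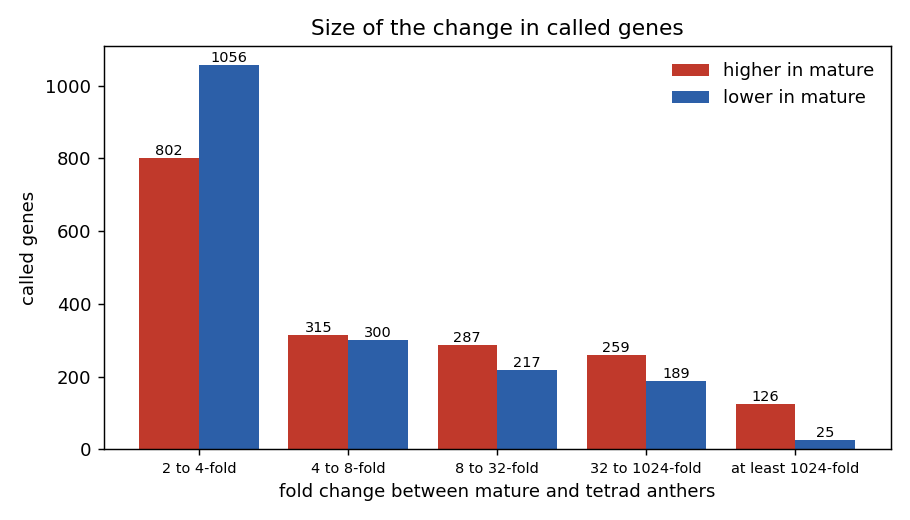
Number of called genes by size of change between mature and tetrad anthers, for genes higher (red) and lower (blue) at maturity. Falls outnumber rises at 2 to 4-fold (1056 and 802), and rises outnumber falls from 8-fold upward, by 126 to 25 beyond 1024-fold.

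The rises past 32-fold started from near nothing. The 385 genes in that group (2.2% of those tested) had a median tetrad level of 0.0652 CPM and a median mature level of 51.8 CPM, and 107 of them had no read in any tetrad library. The 214 falls past 32-fold (1.22%) went from a median of 21.9 CPM in tetrad to 0.173 CPM in mature libraries, and 38 had no mature read. The typical called gene changed far less. Of all 1789 rises, 802 were of 2 to 4-fold and 315 of 4 to 8-fold, and of all 1787 falls 1056 and 300 were. The median level of the rises was 2.61 CPM in tetrad and 22.8 CPM in mature libraries, and that of the falls was 25.9 CPM and then 5.87 CPM. These medians were taken at each stage separately, so their ratio is not the typical fold change of a gene.

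The largest changes, and the rises and falls with the most reads, were picked among called genes whose tetrad and mature libraries do not overlap. Their separation was thus set by the rule and is no result. Over all 17484 tested genes, 9912 (56.7%) showed no overlap. The 8 largest rises so picked, with at least 10 CPM over the 6 libraries, were from no more than 16 reads in any tetrad library. Cla004436 had no tetrad read, and stood at 727, 589.9 and 545 CPM in mature replicates 1, 2 and 3. It was at least 38209-fold higher, taking 3 reads over the 3 tetrad libraries as the floor (limma adjusted p = 3.21e-06). Cla022598 had no tetrad read either and reached 632, 619 and 744 CPM, at least 40955-fold higher (limma adjusted p = 7.88e-05). In both genes the mature libraries lie close together, and all 3 lie far above every tetrad library.

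Cla022729 and Cla001608 had no tetrad read and the smallest standard errors of the 8. The fit takes in all 12 libraries, so the spread of the middle stages enters these errors. With the 6 end-stage libraries alone, the limma adjusted p was 4.10e-08 for Cla022729 and 2.13e-08 for Cla001608. It was then 1.58e-08 for Cla022598 and 2.42e-08 for Cla004436, and 9.78e-06 to 2.40e-05 for the remaining genes of the 8. Cla022729 was at 668, 544 and 429 CPM at maturity, at least 33681-fold higher (limma adjusted p = 1.55e-10). Cla001608 was at 508, 458 and 500.3 CPM, at least 30089.7-fold higher (limma adjusted p = 1.55e-10). All 3 mononuclear libraries already held these genes, at 60.8, 129 and 82.2 CPM for Cla022729 and 8.7, 25.8 and 11.4 CPM for Cla001608. In the other 6 of the largest rises, mononuclear replicates 1 and 3 were at 1.22 CPM or less (Cla020052 was the highest), and replicate 2 held the most. Cla022729 was also the only gene of the 8 whose mean was higher at the dikaryophase (729 ± 272 CPM, SD, n = 3) than at maturity (547 ± 119), a gap smaller than the spread of the dikaryophase libraries.

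In the other 4 of these genes all tetrad reads lay in tetrad replicate 3. Cla005213 had 16 reads there (0.265 CPM) and none in tetrad replicates 1 and 2, against 2297, 1778 and 1884 CPM at maturity. Its log2 fold change was 15.51 ± 1.64 (SE, limma adjusted p = 1.61e-05), and 16.87 without tetrad replicate 3. Cla003117 had 8 reads in tetrad replicate 3 and reached 1035, 852 and 756 CPM, a log2 fold change of 14.64 ± 1.79 (limma adjusted p = 4.91e-05), and 15.69 without that library. In both genes the mature libraries are far above the single tetrad library with reads.

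Cla020051 and Cla020052 could hardly be told apart. Each had 12 tetrad reads, all in replicate 3. At maturity Cla020051 stood at 1213, 984 and 1149 CPM and Cla020052 at 1216, 986 and 1127 CPM. Their log2 fold changes were 14.81 ± 1.15 and 14.80 ± 1.14 (limma adjusted p = 1.52e-06 and 1.40e-06), and 16.04 and 16.03 without tetrad replicate 3. Their levels were also alike at the dikaryophase, with means of 271 ± 35.9 and 269 ± 34.4 CPM (SD, n = 3). Whether they share reads through near-identical sequence was not analysed here, so the level of each is uncertain.

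Tetrad replicate 3 held more reads of the strongly rising genes in general. The 126 genes that rose at least 1024-fold (0.721% of those tested) together had 625 reads in it, 10.3 CPM, against 165 reads (2.61 CPM) in replicate 1 and 171 (2.80 CPM) in replicate 2. It held reads of 61 of the 126 genes, and was the only tetrad library with reads for 37. Set against the summed mature level of the same genes, 10.3 CPM was 0.0252%. The part of this library in the single fold changes is given beside them above, and its source was not tested.

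The 8 largest falls, by the same rule, ended with no more than 55 reads in any mature library. Cla011332 stood at 207, 283 and 244 CPM in the 3 tetrad libraries and had no mature read, at least 14906-fold lower at maturity (limma adjusted p = 8.46e-08). Cla020168 was at 56.7, 61.4 and 44.9 CPM and then without a read, at least 3310.0-fold lower (limma adjusted p = 2.06e-05). Cla006499 was at 35.7, 49.5 and 36.3 CPM and then without a read, at least 2469-fold lower (limma adjusted p = 3.05e-07). The tetrad libraries of these 3 genes lie within a narrow range.

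The other 5 large falls kept a few reads at maturity. Cla021877 went from 3316, 4254 and 1943 CPM in tetrad to 0.846, 0.16 and 0.217 CPM in mature libraries, a change of -13.16 ± 0.70 (SE) on the log2 scale (limma adjusted p = 1.04e-07). Cla018934 went from 1543, 1639 and 693 CPM to 0.615, 0.256 and 0.0723 CPM, a log2 fold change of -12.24 ± 0.86 (limma adjusted p = 6.85e-07). Cla020966 went from 1479, 1899.7 and 891 CPM to 0.338, 0.256 and 0.614 CPM, a log2 fold change of -11.75 ± 0.65 (limma adjusted p = 1.24e-07). In these 3 genes tetrad replicate 3 was the lowest tetrad library, and still far above every mature library. With the 6 end-stage libraries alone, their limma adjusted p was 4.46e-06, 1.34e-05 and 5.66e-07, in the order given.

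Cla021856 and Cla000029 kept their tetrad level into the mononuclear stage. Cla021856 was at 1761, 3892 and 2128 CPM in tetrad, 1486, 3747 and 2363 CPM in mononuclear, and 0.707, 0.369 and 0.632 CPM in mature libraries. Its log2 fold change from tetrad to mature was -12.07 ± 0.62 (limma adjusted p = 8.46e-08). Cla000029 was at 927, 951 and 414 CPM in tetrad, 694, 1070.0 and 668 CPM in mononuclear, and 0.154, 0.192 and 0.506 CPM in mature libraries, with a log2 fold change of -11.40 ± 0.74 (limma adjusted p = 3.91e-07). In both, the tetrad and mononuclear libraries overlap. Both were far lower at the dikaryophase, with means of 7.24 ± 6.02 and 30.1 ± 22.2 CPM (SD, n = 3).

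**Figure D3:**
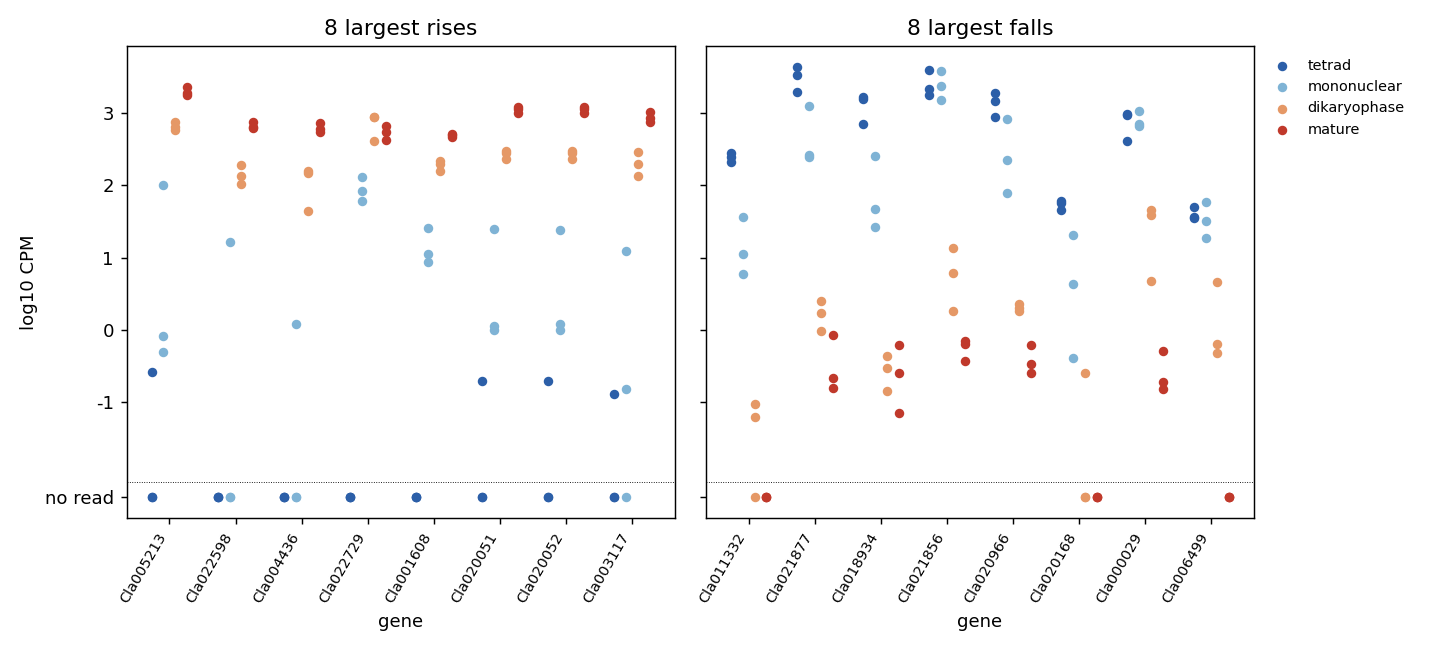
Level of the 8 largest rises (left) and 8 largest falls (right) in each of the 12 libraries, as log10 CPM, with 1 point per library coloured by stage and libraries without a read set below the dotted line. The 16 genes were picked among those whose tetrad and mature libraries do not overlap. Mononuclear libraries of the rising genes lie between 0.153 CPM and 129 CPM where they hold reads.

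The rises that took the most reads at maturity were already present in tetrad anthers. Reads are not corrected for gene length here, so these values rank shares of reads and not transcript numbers. Cla011778 went from 617, 680.3 and 637 CPM in tetrad to 25132, 24888 and 13936 CPM in mature libraries. Mean CPM rose 33.1-fold, and the fitted difference was 5.0 ± 0.32 (SE) on the log2 scale (limma adjusted p = 3.75e-07), and mature replicate 3 was the lowest of its stage. Cla023393 went from 91.3, 521 and 443 CPM to 11748, 12854 and 7459.7 CPM, a log2 fold change of 5.24 ± 0.54 (limma adjusted p = 1.25e-05). Its tetrad libraries were spread more widely than its mature ones, with replicate 1 well below the other two.

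The next 3 rises by mature reads showed less spread at maturity. Cla021161 went from 32.4, 44.2 and 37.3 CPM to 2971, 2458 and 2306 CPM, a log2 fold change of 6.09 ± 0.28 (limma adjusted p = 3.85e-08). Cla000032 went from 17.1, 5.24 and 7.20 CPM to 2876, 2482 and 2116 CPM, a log2 fold change of 8.16 ± 0.94 (limma adjusted p = 3.17e-05). Cla009288 went from 6.15, 5.65 and 7.58 CPM to 2674, 1942 and 2561 CPM, a log2 fold change of 8.53 ± 0.38 (limma adjusted p = 2.96e-08). Tetrad and mature libraries are far apart in all 3.

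Before maturity these 5 genes took separate courses. Cla011778, Cla023393 and Cla021161 had their highest mean in a middle stage: 26997 ± 4023 CPM at the dikaryophase, 21711 ± 3303 CPM at the mononuclear stage and 6647 ± 1272 CPM at the dikaryophase (SD, n = 3). Cla000032 and Cla009288 had their highest mean at maturity, 2491 ± 379.8 and 2392 ± 394 CPM, after 748 ± 179 and 1298 ± 274 CPM at the dikaryophase.

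The falls that took the most reads in tetrad anthers lost nearly all of them. Cla022956 went from 10082, 13042 and 9657 CPM in tetrad to 19.9, 19.5 and 30.5 CPM in mature libraries, a change of -8.89 ± 0.28 (SE) on the log2 scale (limma adjusted p = 2.52e-09). Cla020590 went from 9179, 10755 and 8949 CPM to 22.5, 16.4 and 51.3 CPM, a log2 fold change of -8.49 ± 0.41 (limma adjusted p = 6.13e-08). Cla006201 went from 8099.7, 8162 and 8899 CPM to 4.55, 4.25 and 5.78 CPM, a log2 fold change of -10.76 ± 0.57 (limma adjusted p = 1.03e-07). Mature replicate 3 held the highest remaining level in each of these 3 genes.

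The same held for Cla021099 and Cla015675. Cla021099 went from 8951, 11154 and 6959 CPM to 102, 48.3 and 255 CPM, a log2 fold change of -6.36 ± 0.44 (limma adjusted p = 6.70e-07), and -6.94 without mature replicate 3, which held the 255 CPM. With the 6 end-stage libraries alone, the limma adjusted p of Cla021099 was 7.52e-05. Cla015675 went from 5709.6, 4372 and 8171 CPM to 5.35, 5.34 and 7.90 CPM, a log2 fold change of -9.91 ± 0.54 (limma adjusted p = 1.15e-07). These genes also marked the range of timing among the 5: Cla021099 still stood at 3002 ± 446 CPM at the dikaryophase, whereas Cla015675 was down to 98.8 ± 104 CPM at the mononuclear stage and 6.06 ± 1.56 CPM at the dikaryophase (SD, n = 3).

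Taken as groups, the called genes exchanged places in the read pool. The genes higher at maturity held 2.60%, 2.55% and 2.65% of reads in tetrad replicates 1, 2 and 3, and 22.8%, 20.8% and 16.6% in mature replicates 1, 2 and 3. The genes lower at maturity held 21.0%, 23.8% and 19.5% of tetrad reads and 3.01%, 3.23% and 3.39% of mature reads. The middle stages lay between: the rising genes held 9.38% ± 1.41 at the mononuclear stage and 15.4% ± 1.13 at the dikaryophase (SD, n = 3), and the falling genes 16.4% ± 2.17 and 6.37% ± 0.705. The groups were chosen on the tetrad and mature libraries, so their shares there describe them and are no test.

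**Figure D4:**
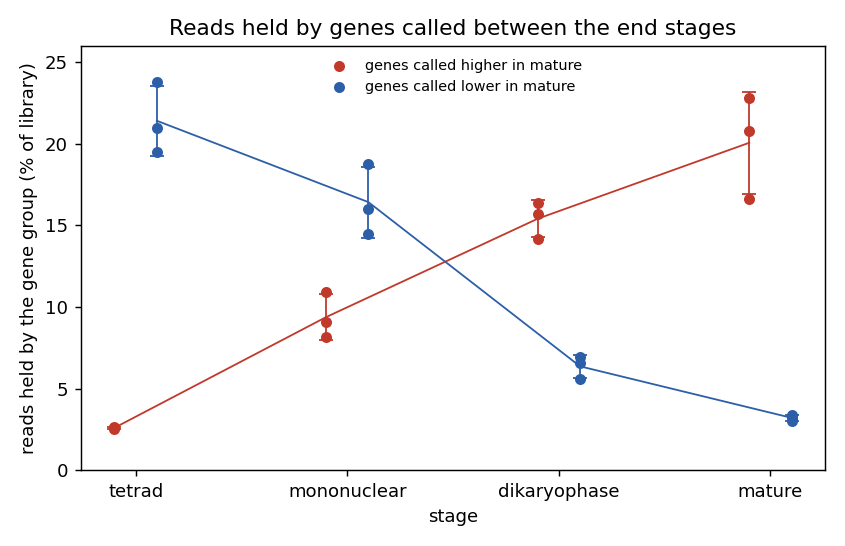
Share of each library's reads held by the 1789 genes called higher (red) and the 1787 called lower (blue) in mature than in tetrad anthers, in percent, by stage, with 1 point per library and lines through the stage means with SD bars (n = 3). The rising genes go from 2.60% on average in tetrad to 20.1% in mature libraries and the falling genes from 21.4% to 3.21%, crossing between the mononuclear stage and the dikaryophase.

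Whole libraries were also compared, by 3 measures that take no account of which genes hold the reads. The 10 genes with the most reads held 6.83%, 7.81% and 6.78% of reads in tetrad and 6.43%, 6.48% and 5.38% in mature libraries, and the groups did not overlap. Genes at 1 CPM or more numbered 16615, 16588 and 16584 in tetrad and 16759, 16784 and 16841 in mature libraries, again without overlap. For both measures the two-sided exact permutation test gave p = 0.1, the smallest that 3 libraries against 3 allow, and 0.15 after Benjamini-Hochberg adjustment over the 3 measures compared. The number of genes that together held 50% of reads was 1342, 1250 and 1361 in tetrad and 1277, 1371 and 1440 in mature libraries, which overlap (exact permutation p = 0.4, adjusted p = 0.4).

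Few genes passed from off at one end to on at the other. A gene counted as off in a stage with no library above 3 reads, and as on with no library under 10 CPM. By this measure 70 of the 17484 tested genes went from off in tetrad to on in mature anthers, and 13 from on to off. Without tetrad replicate 3 the 70 became 104, and without mature replicate 1 the 13 became 22. The gene of the 70 with the highest mature level was Cla019426, with 2, 0 and 2 reads in tetrad and 1003, 839 and 255 CPM in mature libraries. Its log2 fold change was 14.11 ± 1.49 (SE, limma adjusted p = 1.53e-05), and 14.77 without mature replicate 3, the lowest of the mature libraries.

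Genes switched on were not switched on at once. Of the 70, 18 had more than 3 reads in all 3 mononuclear libraries and 10 in none of them, while all 70 had more than 3 reads in all 3 dikaryophase libraries. The median level of the 70 was 0.446 CPM at the mononuclear stage, 20.8 CPM at the dikaryophase and 111 CPM at maturity. The mononuclear value rested on replicate 2, where the median of the 70 was 1.22 CPM, while it was 0 CPM in replicates 1 and 3 and in their mean. Replicate 2 held more than 3 reads of 55 of the 70 genes, 30 of them in no other mononuclear library, against 26 genes in replicate 1 and 25 in replicate 3. Only 4 reached a mean of 10 CPM at the mononuclear stage, Cla001608, Cla022729, Cla011397 and Cla012721, and 3 did so without replicate 2. The latter 2 were singled out after their values were seen. They stood at 137 and 18 CPM there, at 696 and 198 CPM at the dikaryophase and at 235 and 257 CPM at maturity. The mean of Cla011397 was thus highest at the dikaryophase.

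The 13 genes switched off followed the opposite course. All 13 had more than 3 reads in each mononuclear library, at a median of 4.81 CPM against 22.7 CPM in tetrad anthers. Here too mononuclear replicate 2 was the highest, with a median of 8.95 CPM, and without it the mononuclear median was 1.95 CPM. At the dikaryophase 4 still had more than 3 reads in all 3 libraries, and 4 had more than 3 reads in none. The 4 that were still read there were Cla006499, Cla006755, Cla008085 and Cla013848, with means of 1.91, 1.12, 0.583 and 0.0847 CPM; all but Cla006499 were named after their values were seen.

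Taking all called genes, most had covered at least 50% of the distance from the tetrad to the mature log2 value by the dikaryophase. This held for 1346 of the 1789 rises (75.2%) and 1334 of the 1787 falls (74.7%). At the mononuclear stage it held for 521 rises (29.1%) and 722 falls (40.4%), and without mononuclear replicate 2 for 550 rises (30.7%) and 817 falls (45.7%). The median rise stood at 27.5% of the distance at the mononuclear stage and 71.1% at the dikaryophase, and the median fall at 41.1% and 73.0%. The means moved in the same direction at every step in 1053 rises (58.9%) and 994 falls (55.6%). These positions share their end points with the comparison and describe it without a test. They also rest on the deposited scaling between stages, and the step counts given next changed under another scaling.

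The step that held the largest part of the change also differed between the directions. For falls it was most often tetrad to mononuclear, with 836 genes (46.8%), then dikaryophase to mature with 507 (28.4%) and mononuclear to dikaryophase with 444 (24.8%). For rises the numbers were 634 (35.4%) for tetrad to mononuclear, 654 (36.6%) for mononuclear to dikaryophase and 501 (28.0%) for dikaryophase to mature. With library size as the only scaling they were 530, 824 and 430 for rises and 956, 348 and 490 for falls, and among rises of at least 4-fold they were 365, 451 and 171, so the near-tie of the earlier steps for rises did not hold in either setting. Rises that changed most between the mononuclear stage and the dikaryophase were the largest, with a median log2 fold change of 3.35, against 2.32 for the first step and 1.63 for the last.

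**Figure D5:**
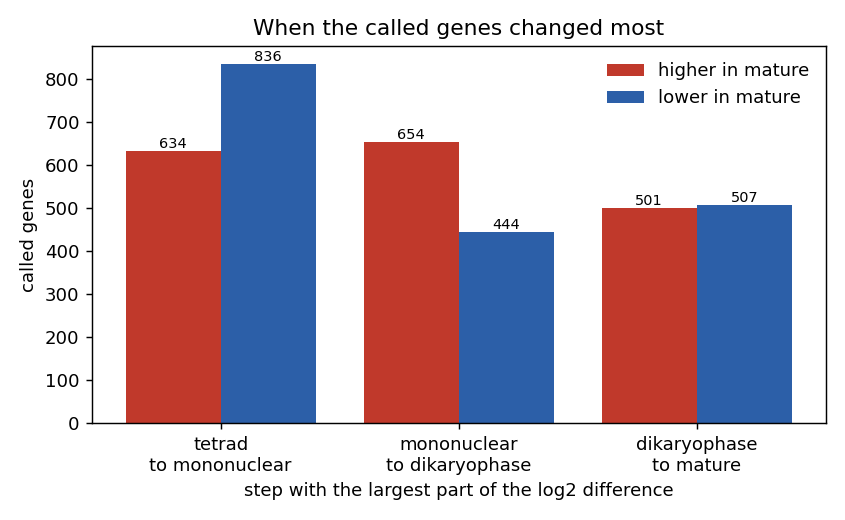
Number of called genes by the step that holds the largest part of the log2 difference between tetrad and mature anthers, for genes higher (red) and lower (blue) at maturity. Falls are most often largest from tetrad to mononuclear (836), and rises are about equally often largest at the first and second step (634 and 654).

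Genes with at least 80% of their change in 1 step illustrate these courses, taken as those with the highest mean CPM. Cla015027 was at 25.7, 30.0 and 40.4 CPM in tetrad libraries and at 9.27, 67.7 and 12.6 CPM in mononuclear ones, where replicates 1 and 3 lay below every tetrad library and replicate 2 above them. It stood at 341 ± 41.7 CPM (SD, n = 3) at the dikaryophase and at 1047, 824 and 299 CPM at maturity. From tetrad to mature its log2 fold change was 4.34 ± 0.65 (SE, limma adjusted p = 0.000213), and 4.93 without mature replicate 3, the lowest mature library. Cla000796 was at 1053, 1402 and 909 CPM in tetrad and 1919 ± 247 CPM in mononuclear anthers, then at 366 ± 27.2 CPM at the dikaryophase and 247, 309 and 253 CPM at maturity (log2 fold change -2.03 ± 0.18, limma adjusted p = 3.55e-06). For rises placed mostly at the first step the gene so chosen was Cla011778, described above.

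The remaining 3 genes chosen in this way lay close to the 2-fold limit. Cla014403 was at 276, 246 and 272 CPM in tetrad, 303 ± 53.8 CPM at the dikaryophase and 471, 547 and 646 CPM at maturity (log2 fold change 1.06 ± 0.13, limma adjusted p = 5.41e-05); it fell short of 2-fold with quantile normalisation (0.96) and without mature replicate 3 (0.99). Cla009752 went from 732, 621 and 786 CPM in tetrad to 344 ± 13.1 CPM in mononuclear and 244, 277 and 547 CPM in mature libraries (log2 fold change -1.09 ± 0.27, limma adjusted p = 0.00715), and it fell short of 2-fold without mature replicate 1 (-0.90) or 2 (-0.96). Cla004354 was at 557, 488 and 481 CPM in tetrad, 490.2 ± 138 CPM at the dikaryophase and 149.6, 454 and 226 CPM at maturity (log2 fold change -1.03 ± 0.33, limma adjusted p = 0.0263). Its call was lost when any library of the 2 stages except mature replicate 2 was left out, with adjusted p of 0.0527 to 0.110 in those settings.

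Some called genes did not move between their 2 end levels alone. Both middle stages lay at least 1 log2 unit above both ends in 77 called genes and below both ends in 2. Cla010382 had the most reads of the former. It was at 1492, 3923 and 2924 CPM in tetrad, at 25413 ± 6318 CPM at the mononuclear stage and 6406 ± 3204 CPM at the dikaryophase (SD, n = 3), and at 140.3, 65.4 and 253 CPM at maturity, a tetrad to mature change of -4.28 ± 0.51 (SE) on the log2 scale (limma adjusted p = 3.99e-05). The dikaryophase libraries of Cla010382, at 9916, 3639 and 5663 CPM, overlap its tetrad libraries. Of the 2 genes with a dip, Cla018490 was at 16.3, 13.0 and 19.5 CPM in tetrad, 0.851 ± 0.368 and 1.31 ± 0.0774 CPM in the middle stages and 3.09, 2.87 and 2.28 CPM at maturity (log2 fold change -2.55 ± 0.32, limma adjusted p = 6.60e-05).

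Abundant genes that held their level stood beside these. The 4 genes with the most reads among the 10802 within 2-fold were Cla005669, Cla014674, Cla010539 and Cla007101. Cla005669 was at 7186, 7664 and 7529.5 CPM in tetrad and 6458, 8033 and 11313 CPM in mature libraries, a log2 difference of 0.17 with a 95% interval of -0.39 to 0.73. Cla010539 was at 3701, 3487 and 4368 CPM in tetrad and 3918, 3791 and 4435 CPM in mature libraries, a log2 difference of 0.08 (-0.30 to 0.46). The libraries of the 2 stages overlap in both genes.

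Cla007101 was at 1991, 2116 and 2185 CPM in tetrad and 2015, 2327 and 2692 CPM in mature libraries, a log2 difference of 0.16 (-0.22 to 0.54). Cla014674 was at 5070.2, 4728 and 5433 CPM in tetrad and 3578, 3374 and 4737 CPM in mature libraries, a log2 difference of -0.39 (-0.80 to 0.02). With quantile normalisation the 4 differences were 0.88 for Cla005669, 0.65 for Cla014674, 1.16 for Cla010539 and 0.88 for Cla007101, and none of the 4 intervals stayed within 2-fold, so their steadiness depends on the scaling, and Cla010539 was then called higher (limma adjusted p = 0.00110). Of all 10802 genes within 2-fold, 126 had a middle stage at least 1 log2 unit above both ends and 13 had one below, together 1.29%. This rule asks for 1 middle stage only, and is looser than the one applied to the called genes above. By the looser rule, 128 of the 1789 called rises and 76 of the 1787 called falls had a middle stage above both ends. A middle stage lay below both ends in 58 of these rises and 43 of these falls.

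Precision differed between genes with few and many reads. Of 406 genes with a mean under 1 CPM over the 6 libraries, 45.8% were called and 4.93% were held within 2-fold, with a median standard error of 0.61 on the log2 scale. Of 4475 genes from 1 to 10 CPM, 28.2% were called and 40.5% were within 2-fold (median standard error 0.28). From 10 to 100 CPM it was 16.4% and 71.0% of 10284 genes (0.15), and from 100 CPM upward 18.8% and 72.0% of 2319 genes (0.14). Genes with a low mean could pass the filter through the stage where they were high or through a middle stage, which bears on their share of calls, so no relation of calls to level is read from these shares.

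Mature replicate 3 was the least changed mature library for many genes. Of the 1789 rises it held the lowest mature value in 1055, against 289 for replicate 1 and 445 for replicate 2. It lay at least 2-fold below both other mature libraries in 259 rises, where replicate 1 did so in 10 and replicate 2 in 21. Its value lay between the dikaryophase mean and both other mature libraries in 705 rises (39.4%) and 552 falls (30.9%). The same count was 217 rises (12.1%) and 271 falls (15.2%) for replicate 1, and 297 rises (16.6%) and 258 falls (14.4%) for replicate 2. Deviations from the stage means, over all tested genes, had a correlation of 0.36 between mature replicate 3 and dikaryophase replicate 3, given as a description. Among the 1787 falls mature replicate 3 was the highest mature library in 838, against 522 for replicate 1 and 427 for replicate 2. It lay at least 2-fold above both other mature libraries in 74 falls, where replicate 1 did so in 37 and replicate 2 in 51. At least 2-fold below both others it lay in 58 falls, against 47 and 65. By the 2-fold measure it thus stood apart less in falls than in rises. At the high end of the falls, tetrad replicates 1, 2 and 3 lay at least 2-fold below both others in 24, 20 and 43 genes. The cause of the shift in mature replicate 3 was not tested.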

How the data were processed

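Anther mRNA was sequenced in 12 libraries on an Illumina HiSeq instrument, per the labels' protocols. The authors deposited a table of log2 values per gene and library; the sources used here name no aligner, counter, build, annotation or strand setting, so the levels of near-identical, overlapping or antisense genes are uncertain. Taken off the log scale and less the added 1, the values of a library were whole multiples of 1 step (100% of values, tolerance 0.01 reads), which gave back reads per gene and CPM. Tested were genes that reached 1 CPM in 3 or more of 12 libraries, which held at least 99.9% of reads.

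limma (3.58.1, R 4.3.3) was fitted to the deposited values with a mean per stage over all 12 libraries and a variance trend; only mature minus tetrad was read. The script was tested on simulated data. A fold change is the difference between stage means on the log2(value + 1) scale, which draws genes with few reads towards 0; ± is the SE of the fit after a log2 fold change and the SD of 3 libraries after a level. For genes without a read in a stage the fold is a bound from mean CPM against 3 reads over that stage; bounds cover counting error only. Members, named-gene rule and tests were chosen with earlier results of these data known. Named were, among called genes without overlap and with at least 10 CPM over the 6 libraries, the 8 largest rises and falls and the 5 rises and falls with the most reads; also 4 abundant genes within 2-fold, 1 gene per direction and step (80% of the change), the leading gene of each off and on set, and the leading genes with middle stages outside both ends. Planned gene lists and markers need product names and were not computed; count-model tests were planned for raw counts only and not run. Scaling, filter, offset, threshold and left-out libraries were varied.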

Additional observations from a re-analysis of the deposited data

How the results depend on the processing

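Counts of calls, of rises and of falls stayed within 1.5 times the reported ones under other scalings, filters, offsets and limma-voom, which called 3540 genes, 3489 of them shared (97.6% of the 3576 calls and 98.6% of its own). Stricter rules gave less by construction: limma's treat test against 2-fold called 1787 genes (973 rises, 814 falls), and a 4-fold threshold 1718 (987 rises, 731 falls). With 4-fold, the largest step was tetrad to mononuclear for 365 rises and 333 falls, mononuclear to dikaryophase for 451 rises and 228 falls, and dikaryophase to mature for 171 rises and 170 falls. Leaving out a tetrad or mature library gave 3383 to 3662 calls, 371 to 409 rises and 205 to 219 falls past 32-fold, 70 to 104 genes switched on, and 13 to 22 switched off, the 22 without mature replicate 1. By construction the counts switched on and off can only stay or grow when a library is left out. Leaving out mononuclear replicate 2 and dikaryophase replicate 3, an alternative added after seeing the data, gave 3565 calls; values without mononuclear replicate 2 were added in the same way.

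The replicate number as a block gave 3598 calls and lost no call of a named gene. Same-numbered tetrad and mature libraries hardly deviated together (correlations of their deviations from the stage means 0.03, -0.01 and -0.06). These values do not show whether such libraries share more than the number. Same-numbered mononuclear and dikaryophase libraries gave 0.11, 0.15 and 0.17, each the best match, and dikaryophase and mature ones -0.06, 0.10 and 0.36. Tetrad and mononuclear ones gave 0.03, 0.04 and -0.01, tetrad and dikaryophase ones -0.06, -0.09 and -0.06, and mononuclear and mature ones -0.11, 0.03 and 0.16. Whether the middle stages, and the timing read from them, depend on the number was not tested. Of 34 named called genes, 31 kept their call in all 19 alternatives; the others were Cla004354, Cla009752 and Cla014403, and the cause was not tested. Depth limits levels near 3 reads per stage.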
